A study of Mchenga conophoros and Petrotilapia sp. 'chitimba' with 16 samples.

Results

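The chaperone genes of these brains were taken from the deposited count table by name. The rule was a locus matching an annotated gene, with a symbol that begins as heat shock proteins (hsp), J proteins (dnaja, dnajb, dnajc), subunits 2 to 8 of the CCT chaperonin, FK506-binding prolyl isomerases (fkbp), BAG-domain co-chaperones (bag), st13, stip1 or ptges3. The rule found 67 genes among 61384 assembled loci, of which 30487 match an annotated gene. There were 19 dnajc, 10 dnajb, 10 fkbp, 7 cct, 5 hspa, 5 hspb, 4 bag, 2 hsp90 and 2 genes of proteins that bind HSP70 or HSPB (hspbp1 and hspbap1). The dnaja, hspd and ptges3 groups held 1 gene each. Of the annotated loci, 19839 carry only a numbered locus name, so chaperone paralogs without a symbol were not analysed here.

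Molecular chaperones bind unfolded or partly folded proteins and help them reach or keep their shape. HSP70 proteins bind short exposed stretches in a cycle driven by ATP, J proteins bring them clients and speed up ATP hydrolysis, and BAG proteins release the nucleotide. HSP90 acts later, with co-chaperones such as p23 (ptges3) and FKBP52 (fkbp4), on clients that include steroid receptors and kinases. The CCT ring encloses actin and tubulin, which prefoldin delivers, and small heat shock proteins (hspb) hold unfolding proteins without ATP. Several of these genes are induced by heat and other stress through heat shock factor 1.

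The series set total RNA (input) beside RNA pulled down with ribosomes by an antibody to phosphorylated ribosomal protein S6 (IP), a mark of active neurons. Whole brains came from 8 adult male Lake Malawi cichlids of 2 species that respond with different aggression to their mirror image. MC is Mchenga conophoros and PC is Petrotilapia sp. 'chitimba', with 4 fish of each. Of these, 2 per species saw a mirror placed in the home tank during 15 min (mirror) and 2 were kept as controls (control), and the brains were taken 90 min later. Batches a and b each held 1 fish per species and exposure, and every fish gave an input and an IP library, so each of the 8 groups has 2 libraries. No allele or drug was applied to any group according to the labels, and they state no exact age.

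The input libraries held 10073251 to 12190271 counts in 6 fish, and 22058698 and 23594320 in the PC mirror fish. The IP libraries held 1872019 to 11186928 counts. Neuron markers were present in every input, at a summed 2540 to 3690 CPM (counts scaled to a common library size). The chaperone genes took 0.206% to 0.326% of the counts of an input library, and hsp90ab1 alone took 29.8% to 38.3% of these. In the inputs 54 of the 67 genes had a count in all 8 fish, and 64 passed the filter on low counts. The 3 that did not pass were dnajc22, dnajc30 and fkbp6. Levels below are CPM scaled by trimmed mean of M values (TMM), and they are compared between fish, not between genes, because exon lengths were not used. Fish are given in the order batch a, batch b.

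In total RNA, the chaperone genes called between the species were higher in PC under TMM scaling, while size factors from well-measured annotated loci gave 7 higher and 5 lower. The share of all loci called with those size factors is not given here. With TMM, 14 of the 64 tested genes were higher in PC and 0 lower at an adjusted p under 0.05 (edgeR quasi-likelihood test with Benjamini-Hochberg adjustment over all 28742 tested loci). Over all loci, this TMM fit called 8.16% higher and 2.28% lower, and over loci that match an annotated gene it called 10.7% higher. The genes called were 4 of 9 fkbp (fkbp3, fkbp2, fkbp1b and fkbp11), 4 of 7 cct (cct3, cct4, cct6a and cct8), 3 of 17 dnajc (dnajc9, dnajc19 and dnajc8), dnajb6 of 10 dnajb, hspa14 of 5 hspa and hspb1 of 5 hspb. The median log2 fold change of the 64 genes, PC against MC, was 0.56, against 0.32 over annotated loci and 0.03 over all loci, and 45 of the 64 were above 0, against 62.8% of annotated loci.

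**Figure D1:**
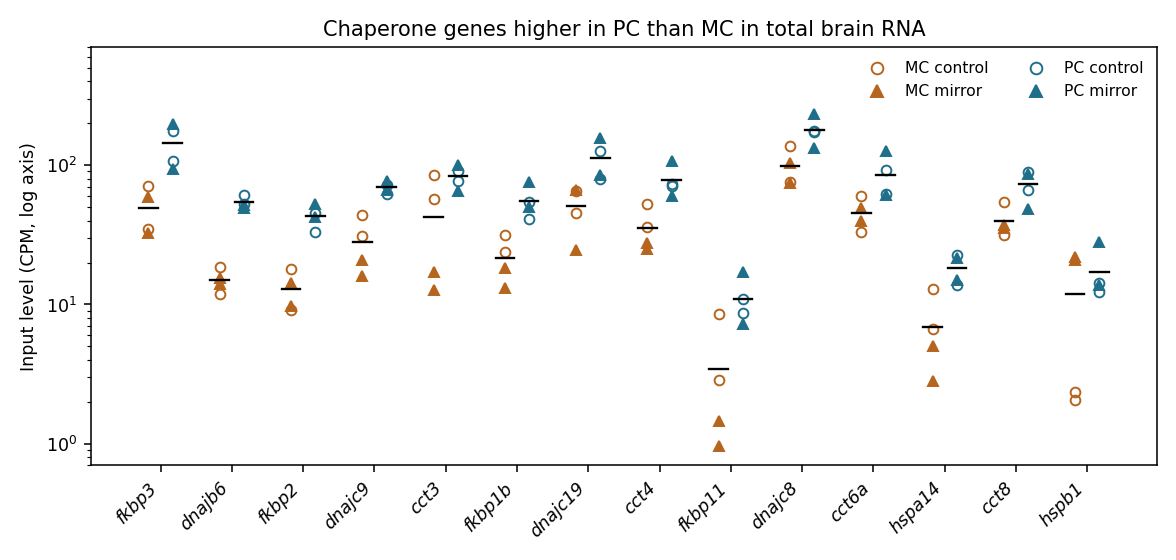
Input level (CPM, log axis) of the 14 chaperone genes called higher in PC, with 1 point per fish, open circles for control, filled triangles for mirror, and black bars for the mean of the 4 fish of a species. For dnajb6 the PC fish sit between 49.5 and 61.5 and the MC fish between 11.9 and 18.7, while for hspb1 the MC mirror fish overlap the PC fish.

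The share called depended on how high a gene was. Above an average of 6 log2 CPM, 49.1% of annotated loci were called higher in PC, and 4 of 6 chaperone genes were. Between 4 and 6, the share was 17.1% of annotated loci and 7 of 27 chaperone genes. Between 2 and 4, it was 6.11% and 3 of 22, and below 2 none of 9 chaperone genes was called. The 14 called genes had a median level of 5.71 log2 CPM, and the 50 others 3.62. In the 3 bands from 2 log2 CPM upward the share of chaperone genes called was above that of annotated loci, on 3, 7 and 4 called genes, and this difference was not tested.

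**Figure D2:**
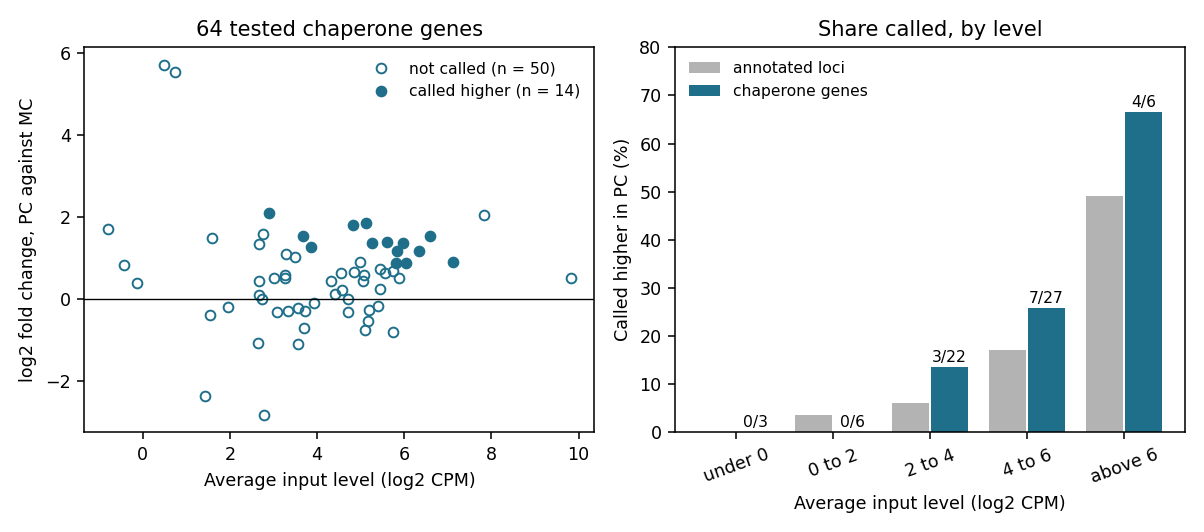
Left, log2 fold change of PC against MC in input against the average input level (log2 CPM) for the 64 tested chaperone genes, filled where called higher. Right, the share called higher in each band of level for annotated loci (grey) and chaperone genes (blue, with the number called of the number tested), which climbs to 49.1% and 4 of 6 above 6 log2 CPM.

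Short loci were also called more often. Annotated loci were divided into 4 equal sets by their span from first to last base with introns. In the set that spans least, 5233 bp or less, 24.1% were higher in PC and the median log2 fold change was 1.02. In the set that spans most, 2.03% were higher and the median was -0.08. In the sets of 5234 to 10417 bp and of 10420 to 22623 bp, 11.7% and 5.16% of annotated loci were higher. From the shortest set to the longest, chaperone genes were called in 6 of 20, 6 of 29, 2 of 10 and 0 of 5 cases. Their median log2 fold change was 0.78, 0.38, 1.01 and 0.45 in the same order, and thus did not fall steadily with span. The difference between chaperone genes and annotated loci within a set was not tested. Other values also differed between the species. Radial glia and astrocyte markers (4 of 10 listed genes were found) summed to 3680 to 5220 CPM in MC and 7160 to 13800 CPM in PC. s100b and fabp7 were higher in PC (log2 fold changes 1.33 and 1.73), slc1a2 was at -0.74 and did not pass, and aqp4 was at 0 in every input. Skeletal muscle markers (3 of 9 found) summed to 86.6 to 140 CPM in MC and 370 to 957 CPM in PC, with mb, the oxygen store myoglobin, higher in PC (log2 fold change 3.27, adjusted p = 1.23e-04) and actn3 (-0.58) and myl1 (0.35) not called. Oligodendrocyte markers summed to 803 to 1090 CPM in MC and 232 to 790 CPM in PC, with mag lower in PC (-1.01) and mpz (-0.90), olig1 (-0.08) and olig2 (0.03) not called. The part of level, locus span and cell makeup in the species differences of chaperone genes was not tested, and in whole brain fewer cells of a type and less RNA per cell cannot be told apart.

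Among the prolyl isomerases, fkbp3 encodes a nuclear protein that also binds DNA. Its input level was 34.7 and 71.4 CPM in MC control, 32.6 and 58.9 in MC mirror, 107 and 176 in PC control, and 93.2 and 198 in PC mirror fish. The lowest PC fish lay above the highest MC fish, and in each species the batch b fish were higher than those of batch a. The log2 fold change was 1.55 ± 0.19 (SE), with an adjusted p of 0.00168.

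The product of fkbp2 sits in the endoplasmic reticulum. It was at 9.09 and 18.1 CPM in MC control, 9.73 and 14.3 in MC mirror, 33.3 and 45.1 in PC control, and 42.5 and 53.0 in PC mirror fish. The species did not overlap, and the log2 fold change was 1.80 ± 0.24 (adjusted p = 0.00224). For fkbp1b, whose product binds ryanodine receptors, the means were 21.7 ± 7.88 CPM in MC and 55.1 ± 14.4 CPM in PC (SD, n = 4 fish each). The log2 fold change of fkbp1b was 1.36 ± 0.25 (adjusted p = 0.00988). Another endoplasmic reticulum isomerase, fkbp11, rose from 3.44 ± 3.47 CPM in MC to 11 ± 4.39 CPM in PC (log2 fold change 2.10 ± 0.46, adjusted p = 0.0215), with the highest MC fish, at 8.51 CPM, inside the PC range. The HSP90 partner fkbp4 had the opposite sign without passing the test, at -0.75 ± 0.32 (adjusted p = 0.176).

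J proteins gave 4 of the calls. For dnajb6, which in mammals holds back the aggregation of polyglutamine proteins, the input level was 11.9 and 18.7 CPM in MC control, 14.0 and 15.5 in MC mirror, 61.5 and 52.8 in PC control, and 49.5 and 52.1 in PC mirror fish. The groups within a species were close together and the species were far apart, with a log2 fold change of 1.85 ± 0.24 and an adjusted p of 0.00200. dnajc9, a J protein that also carries histones, was at 31.1 and 43.7 CPM in MC control, 20.9 and 15.9 in MC mirror, 61.8 and 71.9 in PC control, and 66.0 and 77.2 in PC mirror fish. Its species did not overlap (log2 fold change 1.39 ± 0.23, adjusted p = 0.00554). dnajc19, a part of the motor that imports proteins into mitochondria, averaged 50.5 ± 19.8 CPM in MC and 111 ± 36.5 CPM in PC (1.17 ± 0.22 on the log2 scale, adjusted p = 0.0105). For dnajc8, a nuclear J protein linked to splicing, the means were 97.9 ± 29.9 and 179 ± 40.6 CPM (0.90 ± 0.21, adjusted p = 0.0260), and PC mirror batch a, at 133 CPM, lay below MC control batch b, at 138 CPM.

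Not all J proteins had a positive difference. dnajc13, which works with HSP70 on endosomes, was at 12.9 to 16.8 CPM in the 4 MC fish and 5.15 to 10.7 CPM in the 4 PC fish. This was the only chaperone gene of which every PC fish was below every MC fish, against 8.01% of all loci, and its log2 fold change of -1.10 ± 0.36 did not pass (adjusted p = 0.0910). In the other direction, 15 chaperone genes had every PC fish above every MC fish, against 12.7% of all loci and 16.2% of annotated loci. Several well-measured J genes did not pass, with log2 fold changes of 0.52 for dnaja2 (adjusted p = 0.137), 0.25 for dnajb4 (adjusted p = 0.524) and -0.28 for dnajb12 (adjusted p = 0.483). dnajc7, a co-chaperone of HSP70 and HSP90, was at 35.5 to 50.7 CPM in all 8 fish.

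All 7 CCT genes had a log2 fold change above 0, against 62.8% of annotated loci. The CCT values ran from 0.64 to 1.36 with a median of 0.87, and 4 passed. cct4 was at 35.7 and 52.9 CPM in MC control, 27.4 and 24.9 in MC mirror, 71.1 and 73.6 in PC control, and 60.5 and 107 in PC mirror fish. Every PC fish was above every MC fish for cct4, and the log2 fold change was 1.18 ± 0.23 (adjusted p = 0.0139). cct4 overlaps the gene pus10 on the opposite strand and cct6a overlaps 2 unnamed loci on its own strand. Whether reads were counted by strand is not stated, so reads of such partners cannot be told apart. cct6a averaged 45.7 ± 11.7 CPM in MC and 85.5 ± 31.0 CPM in PC (adjusted p = 0.0337), and cct8 39.6 ± 10.1 and 73.0 ± 19.2 CPM (adjusted p = 0.0379). Both had a log2 fold change of 0.87. The call for cct3, at 1.36 ± 0.24 (adjusted p = 0.00818), came with a low level in the MC mirror fish alone, and is described with the mirror values. cct5, cct2 and cct7 were at 0.73, 0.64 and 0.90 with adjusted p of 0.0675, 0.117 and 0.164.

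The first CCT subunit, tcp1, which the name rule does not take, was at -0.22 (adjusted p = 0.675). Beside the list counts that follow, 8.16% of all loci were higher in PC and 2.28% lower. Of annotated loci 10.7% were higher, and of those above 6 log2 CPM 49.1%. The part of level in the list calls was not tested. In a list of 44 tested folding genes outside the named set, tcp1 included, 10 were higher in PC and 3 lower, with a median log2 fold change of 0.53. The 10 included the prefoldin subunits pfdn1 (1.95), vbp1 (1.69), pfdn4 (1.59), pfdn6 (1.45) and pfdn2 (0.96). Also among them were the tubulin folding cofactors tbcc (1.81), tbca (1.49) and tbce (1.48), and the dynein-linked chaperone nudc (1.38). Lower in PC were the endoplasmic reticulum genes pdia3, a disulfide isomerase (-1.21), and clgn, a lectin chaperone (-1.20), and the secreted chaperone clu (-0.63). Of 13 tested stress regulators, xbp1 (1.26) and atf4 (0.99), transcription factors of the unfolded protein response, were higher, and the median was -0.02. Of the 15 tested chaperone genes on the endoplasmic reticulum list, fkbp2 and fkbp11 were called and the median was 0.38. Of the 6 tested on the mitochondrial list dnajc19 was called, and their median was 0.52. That list also held hspb11, whose product is known from intraflagellar transport.

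Of 2 HSP90 and 5 HSP70 genes, hspa14 was called. hsp90ab1, the constitutive cytosolic HSP90, was at 693 and 981 CPM in MC control, 520 and 829 in MC mirror, 963 and 1100 in PC control, and 852 and 1340 in PC mirror fish. The species overlapped, and the log2 fold change of 0.51 ± 0.15 did not pass (adjusted p = 0.0626). hsp90b1, its endoplasmic reticulum relative, stayed within 18.6 to 25.6 CPM in all 8 fish. ptges3, the HSP90 co-chaperone p23, was at 177 and 175 CPM in MC control, 99.4 and 3.74 in MC mirror, 331 and 369 in PC control, and 301 and 380 in PC mirror fish. Every PC fish was higher for ptges3, but MC mirror batch b, with 41 counts, stood far below the rest, and the log2 fold change of 2.06 ± 0.72 did not pass (adjusted p = 0.112).

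hspa14, an HSP70 relative that in mammals sits at the ribosome, was at 6.64 and 12.9 CPM in MC control, 5.03 and 2.82 in MC mirror, 13.8 and 22.8 in PC control, and 15.1 and 21.5 in PC mirror fish. It was the HSP70 gene called (1.53 ± 0.38, adjusted p = 0.0357), with no overlap between the species. The mitochondrial HSP70 hspa9 had the opposite sign, with 67 ± 6.06 CPM in MC and 40.6 ± 17.7 CPM in PC (-0.80 ± 0.29, adjusted p = 0.129), and it overlaps a locus on its own strand. Its partner in the matrix, the chaperonin hspd1, was at -0.21. hspa4l, a nucleotide exchange factor of the HSP110 family, was at 11.5 to 18.7 CPM in all 8 fish (-0.11). The nucleotide exchange factor hspbp1 was at 0.09, and hspbap1, whose product binds HSPB1, had 0 counts in 3 of 4 MC fish and 1.87 to 3.79 CPM in the PC fish (adjusted p = 0.103). The 4 BAG genes had log2 fold changes of -0.29 to 1.5, and 0 passed. Among them bag5 was at 0.68 (adjusted p = 0.143) and bag4 at 0.52 (adjusted p = 0.457).

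The species calls differed in how far they rested on single fish and on scaling. fkbp3, dnajb6, fkbp2 and dnajc9 passed with any 1 fish left out, and cct3 failed only without PC mirror batch b. Leaving out 1 fish gave 4 to 16 calls, with 4 without PC mirror batch b, 6 without MC control batch a, 7 without either PC control fish and 9 without MC control batch b. Within batch a alone 3 genes passed (dnajb6, fkbp2 and fkbp3) and within batch b alone 0, and all 14 kept their sign in each batch. With size factors taken only from annotated loci above 5 log2 CPM, the median of all loci moved from 0.03 to -0.37. The chaperone genes then split into 7 higher and 5 lower in place of 14 and 0. The shares of all loci called with these size factors, in single batches or with a fish left out are not given here. These counts are therefore not a result about chaperone genes as a set. The 7 were cct3, dnajb6, dnajc9, fkbp11, fkbp1b, fkbp2 and fkbp3, and the 5 were dnajc13, dnajc16, dnajc27, fkbp4 and hspa9.

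For the mirror, no chaperone gene passed in total RNA in the main fit. Of 64 tested genes 0 were called by the main edgeR fit, against 0.0104% of all loci (3 loci). At an unadjusted p under 0.05 there were 3, against 4.07% of all loci. DESeq2 called hspb1 and cct3, and limma-voom called 0. Without the low-count filter edgeR called 3 genes, hspb1 and cct3 among them. The shares of all loci called by these other fits are not given here, and the 0.0104% belongs to the main fit alone. An exact permutation test of mirror against control fish, with the species pooled, gave no adjusted p below 0.914. The smallest p it can give is 0.0286, and 64 genes were tested. An adjusted p under 0.05 would need many genes at that smallest p, so this test cannot decide on single genes. The median log2 fold change, mirror against control, was -0.12 for the chaperone genes and -0.08 for all loci. The difference between the species in the mirror effect was called for 0 chaperone genes and 0.0104% of loci by the main edgeR fit. At an unadjusted p under 0.05 there were 7 chaperone genes, against 5.02% of loci. DESeq2 called cct3 there, and limma-voom called 0. Without the low-count filter edgeR called 2 genes for this difference, cct3 among them. For this difference too, the shares of all loci called by the other fits are not given. Without MC mirror batch a, so that MC mirror batch b stood alone with its low ptges3 and its 0 counts of dnajb5, edgeR called those 2 genes in both comparisons.

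The small heat shock protein hspb1 (HSP27), which binds unfolding proteins and actin filaments, had the smallest p for the mirror. It was at 2.06 and 2.35 CPM in MC control, 21 and 21.9 in MC mirror, 14.2 and 12.2 in PC control, and 13.8 and 28.2 in PC mirror fish. In MC the mirror fish were 9.73 times the control fish on average with the replicates close together, while in PC the ratio was 1.59 and the groups overlapped. The log2 fold change over both species was 1.95 ± 0.33 (adjusted p = 0.307), and the difference between the species was -2.67 ± 0.64 (adjusted p = 0.736). The species call of hspb1 rested on the control fish: its log2 fold change in mirror fish alone was -0.14.

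hspb6 (HSP20), a partner of hspb1 in smooth and heart muscle, was at 3.95 and 1.63 CPM in MC control, 15.7 and 28.1 in MC mirror, 3.68 and 0 in PC control, and 0.226 and 1.17 in PC mirror fish. hspb7, known from heart and skeletal muscle, was at 5.53 and 2.26 CPM in MC control, 9.25 and 17.3 in MC mirror, 7.78 and 3.21 in PC control, and 1.76 and 2.57 in PC mirror fish. hspb8, which acts with bag3 in the removal of damaged proteins, was at 0.158 and 5.25 CPM in MC control, 11.2 and 7.29 in MC mirror, 7.57 and 3.66 in PC control, and 6.74 and 7.76 in PC mirror fish. hspb6 overlaps proser3 and hspb11 overlaps lzts1 on the opposite strand. For hspb6, hspb7 and hspb8 both MC mirror fish were above both MC control fish. The share of all loci that separate the MC exposures in this way was not counted. With 2 fish against 2, such an order arises often by rank alone. Other chaperone genes separated too, such as dnajc16, at 13.8 and 12.8 CPM in MC control and 17.4 and 19.9 in MC mirror fish. In the reverse order, dnaja2 was at 52.9 and 67.4 CPM in MC control and 38.4 and 38.8 in MC mirror fish. The same limit holds for hspb1 above and for cct3, cct4, dnajc6 and fkbp11 below. In PC, hspb6 overlapped between exposures, hspb7 was lower in both mirror fish, and hspb8 overlapped.

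All 5 hspb genes, with hspb11 included, had a mirror log2 fold change above 0 (median 1.04), against 44.1% of all loci. Their species difference of the mirror effect was below 0 (median -2.67), while 54.8% of all loci were above 0. Of the hspb genes 0 passed in the main edgeR fit or with limma-voom in either comparison. DESeq2, and edgeR without the low-count filter, called hspb1 for the mirror. In MC hspb11 overlapped between the exposures. The product of hspb11 is known from intraflagellar transport, and its mirror value was 0.13. bag3, the partner of hspb8, was at 13.5 and 12.4 CPM in MC control and 12.5 and 18.5 in MC mirror fish. dnajb1, an HSP40 gene induced by heat, was at 22.5 and 32.9 in MC control and 16.4 and 34.1 in MC mirror fish, so neither separated the exposures. The stress regulator list had 0 of 13 genes called.

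Some markers of other cells also differed between the exposures in MC, while others on the same lists overlapped or had the opposite order. The muscle gene actn3 was at 4.43 and 3.26 CPM in MC control and 13.9 and 16.4 in MC mirror fish, while mb was at 58.0 and 113 in MC control and 20.6 and 48.6 in MC mirror fish. The third muscle gene, myl1, was at 38.3 and 3.89 CPM in MC control and 52.1 and 75.4 CPM in MC mirror fish. The summed muscle list was at 101 and 120 CPM in MC control and 86.6 and 140 CPM in MC mirror fish. The fibroblast and meninges list (5 of 7 genes found) summed to 32.3 and 34.8 CPM in MC control and 53.7 and 121 CPM in MC mirror fish. Of the 121 CPM, col1a2 alone gave 89.6. On this list col1a1 and col1a2 were higher in both MC mirror fish than in both control fish, and ogn and lum overlapped. fmod had 0 counts in both MC control fish and 3 and 19 in the MC mirror fish, and a count of 0 allows up to 3. The part of muscle or meninges in the hspb values was not tested.

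**Figure D3:**
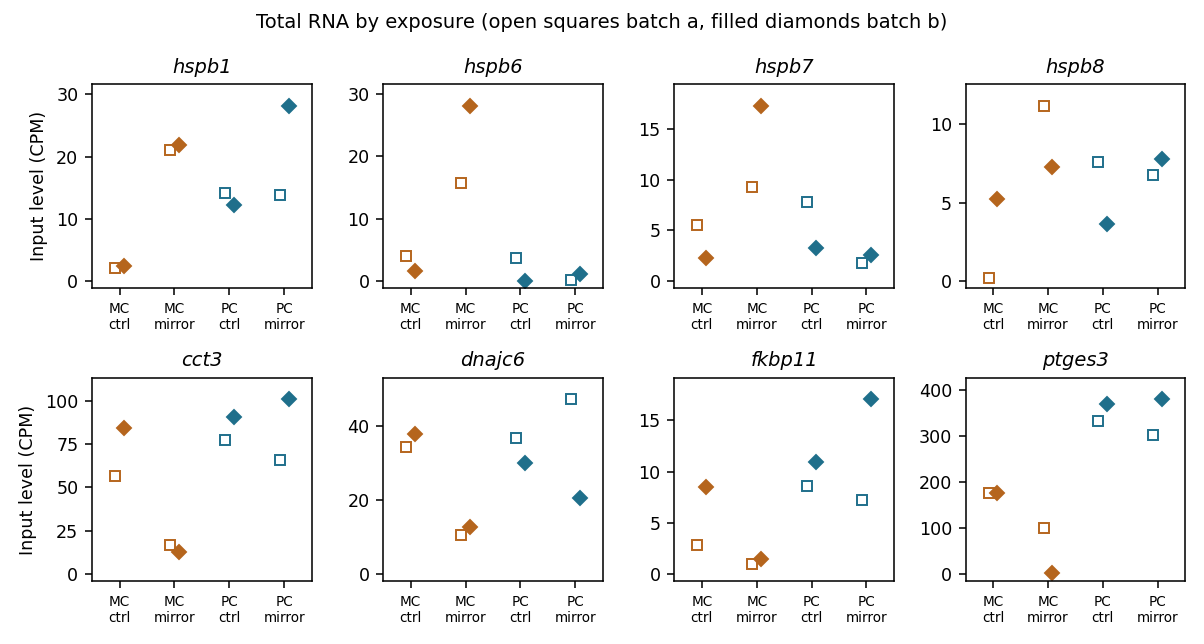
Input level (CPM) of 8 chaperone genes in each fish, by species and exposure, with open squares for batch a and filled diamonds for batch b. hspb1 is at 2.06 and 2.35 in the MC control fish and at 21 and 21.9 in the MC mirror fish, cct3 has the reverse order in MC, and ptges3 is low in MC mirror batch b at 3.74.

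cct3 was at 56.7 and 84.4 CPM in MC control, 17 and 12.7 in MC mirror, 77.5 and 90.4 in PC control, and 65.6 and 101 in PC mirror fish. In MC both mirror fish were far below both control fish, and in PC the exposures overlapped. The mirror log2 fold change was -1.12 ± 0.24 (adjusted p = 0.551), and the difference between the species 2.18 ± 0.48 (adjusted p = 0.606). Of the other CCT subunits, 5 overlapped between the exposures in MC. For example, cct2 was at 32.1 and 40.3 CPM in control and 36.3 and 36.0 in mirror fish, and cct6a at 33.1 and 60.2 and at 40.0 and 49.3. For cct4 both MC mirror fish were below both control fish, with a mirror log2 fold change of -0.28 (adjusted p = 1.00). CCT subunits are built into 1 ring, and the count table measures RNA only.

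dnajc6 encodes auxilin, which strips clathrin from synaptic vesicles with HSP70. It was at 34.3 and 37.6 CPM in MC control, 10.6 and 12.6 in MC mirror, 36.7 and 29.9 in PC control, and 47.2 and 20.5 in PC mirror fish. The MC groups did not overlap and the PC groups did, and neither the mirror value of -0.82 ± 0.29 (adjusted p = 1.00) nor the species difference of 1.61 ± 0.58 (adjusted p = 0.971) passed. dnajc6 overlaps another annotated locus on the opposite strand. fkbp11 had the same order in MC, with 2.85 and 8.51 CPM in control and 0.957 and 1.46 in mirror fish. hspa12b, an HSP70 relative of blood vessels, had 0 counts in all 4 mirror fish and 0.543, 1.89 and 1.61 CPM in 3 of the 4 control fish, and did not pass (adjusted p = 1.00). Over both species, hspa13, an HSP70 of the endoplasmic reticulum, was the chaperone gene of which every mirror fish was above every control fish, against 0.598% of loci. hspd1 was the one with every mirror fish below, against 0.898% of loci, and their log2 fold changes of 0.66 ± 0.45 and -0.47 ± 0.33 did not pass (adjusted p = 1.00 for each).

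In the IP libraries most chaperone genes were not read at all or were read at a high count. Of 536 values (67 genes in 8 libraries), 339 were 0, 6 were 1 to 9, 33 were 10 to 99 and 158 were 100 or more. The inputs had 41 values of 0 among 536. The number of chaperone genes with a count was 12 and 24 in MC mirror, 15 and 24 in MC control, 34 and 35 in PC control, and 36 and 17 in PC mirror IP libraries. The numbers were low in the shallowest libraries but did not follow depth elsewhere. PC mirror batch b, with 17, was the deepest IP library. MC control and MC mirror batch b, with 24 each, had 9263533 and 9147304 counts, while PC control batch b, with 35, had 4250470. A count of 0 allows up to 3 counts, which is 0.268 to 1.60 CPM in these libraries before TMM scaling, counting error only.

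Of the 67 genes, 52 had a count in at least 1 IP library and 15 had none. Only fkbp3, hsp90ab1, ptges3 and hspa9 had a count in all 8, and hspa9 ranged from 1 to 1556 counts. Its counts were 1 and 23 in MC control, 7 and 1556 in MC mirror, 220 and 7 in PC control, and 71 and 78 in PC mirror IP, while the inputs had 373 to 1379. cct3 had 667 and 3400 counts in MC control IP, 0 and 1763 in MC mirror IP, 0 and 42 in PC control IP, and 116 and 0 in PC mirror IP. In 3 of the 4 IP groups the gene was counted in 1 fish and at 0 in the other, and no fold change of cct3 in the IP is given.

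The hspb genes were mostly at 0 in the IP. hspb8 had no count in any IP library, hspb1 had 288 counts in PC control batch b and 0 in the other 7, hspb7 had 172 in MC mirror batch b and 0 in the other 7, and hspb6 had 575 in PC control batch a and 0 in the other 7. The 2 MC mirror fish with the higher hspb1 input level had 0 counts of hspb1 in their IP. hspb11 had counts in 4 IP libraries, from 114 to 695.

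Among the 54 chaperone genes counted in all 8 inputs, 4 (7.41%) were at 0 in all IP libraries, against 18.1% of 12318 annotated loci counted in all 8 inputs, and 4 (7.41%) were counted in all 8 IP libraries, against 6.36%. The median number of IP libraries with a count was 3 for chaperone genes and 2 for annotated loci. These shares are a description, and the levels of the sets differ.

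**Figure D4:**
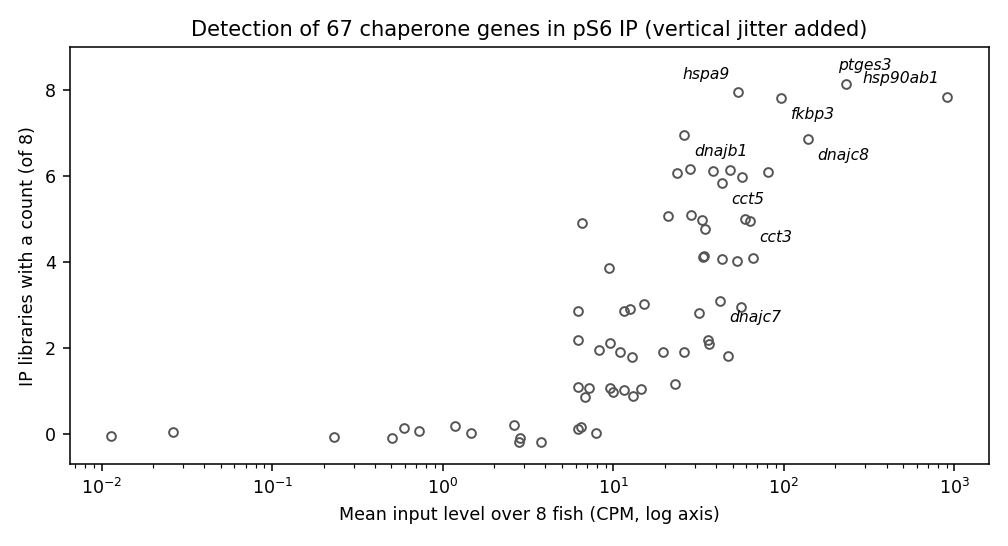
Number of the 8 IP libraries with at least 1 count against the mean input level (CPM, log axis) for the 67 chaperone genes, with a small vertical scatter added. The genes with the lowest input levels are at 0 libraries, and fkbp3, hsp90ab1, ptges3 and hspa9 are at 8.

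A difference of level between IP and input was tested among the 856 loci with an average above 7 log2 CPM over the 16 libraries, which hold 3 chaperone genes. Of these, hsp90ab1 was lower in the IP and ptges3 and dnajc8 were not called. Among the 856 loci 12.6% were called lower and 10.6% higher, and the median log2 fold change was -0.31. The fit took library sizes and TMM from the 856 loci. Values per fish, on a log2(CPM + 1) scale, took them from all 29597 loci that passed the filter. IP minus input of hsp90ab1 was -1.31 and -1.07 in MC control and -3.19 and -1.69 in MC mirror fish. In PC it was -0.58 and -0.80 in control and -0.88 and -1.75 in mirror fish. The IP was lower in 8 of 8 fish, with the largest gap in MC mirror batch a, the shallowest IP library.

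The fitted log2 fold change of hsp90ab1 was -1.22 ± 0.22 (edgeR quasi-likelihood test, adjusted p = 0.00429). A two-sided exact sign-flip test of the values per fish (mean -1.41 over the 8 fish), 1 of 3 such tests, gave p = 0.00781 (adjusted p = 0.0234). This p is the smallest the test can give. With fish as a replicate block the fitted value was -1.28 (adjusted p = 0.0170). The call was lost without PC mirror batch b, in MC fish alone (-1.36, adjusted p = 0.124) and in batch a alone (-1.22, adjusted p = 0.235), and held in batch b alone (-1.20, adjusted p = 0.0245). Marker genes of other cells were also lower in the IP among these loci, such as the glial genes fabp7 (-1.18), s100b (-2.27) and slc1a2 (-3.48), and so were the neuronal genes snap25 (-1.24) and nefm (-1.52), while the other 2 neuronal genes there, nefl (0.83) and syt1 (0.43), were above 0 and did not pass. Their part in the hsp90ab1 value was not tested. Of the folding genes outside the named set, pfdn1 (0.78) and nudc (1.2) were higher in the IP.

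ptges3 had no common direction, with IP minus input between -1.31 and 2.20 in the 8 fish. The 2.20 was that of MC mirror batch b, the fish with the low input, and the fitted value was -0.24 ± 0.53 (adjusted p = 0.779). dnajc8 was at 0 counts in MC control batch a IP and had 367 to 2969 counts in the other 7, and its fitted value was -0.03 ± 0.91 (adjusted p = 0.990). The species difference of the IP values was called by edgeR for 0 of these 3 genes, against 1.75% of the 856 loci, and the mirror effect on them for 0, against 0.234%. At an unadjusted p under 0.05 there were 0 in either comparison, against 15.1% and 5.26% of the loci. For hsp90ab1 the mirror effect on the IP value was -0.78 ± 0.44 and the species difference 0.41 ± 0.44 (adjusted p = 1.00 and 0.764). Without MC mirror batch b the mirror effect was called for hsp90ab1. Without MC control batch b dnajc8 was called in each of the 3 comparisons. MC control batch a, at 0 for dnajc8 in the IP, was then alone in its group, and the cause of these calls was not tested.

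**Figure D5:**
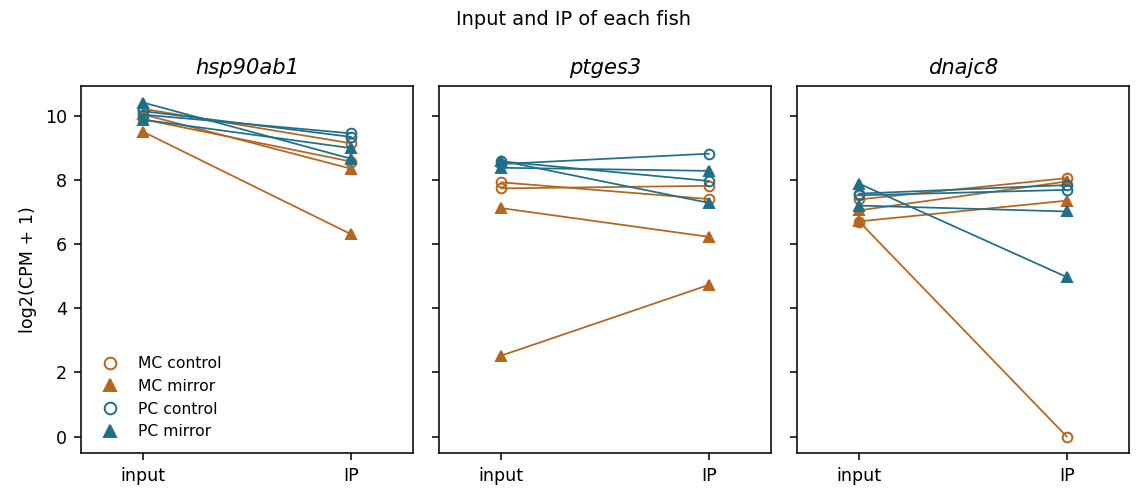
Level of hsp90ab1, ptges3 and dnajc8 in the input and the IP of each fish, as log2(CPM + 1), with a line per fish coloured by species. All 8 hsp90ab1 lines fall, ptges3 has 1 low input, and dnajc8 has 1 IP at 0.

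Over all 29597 loci that passed the filter in the 16 libraries, 36 of 64 chaperone genes were called lower in the IP and 0 higher, against 57.4% of loci lower and 0.331% higher. The share of chaperone genes called lower, 36 of 64, was thus near that of all loci, and fitted fold changes are not given because most of the genes are at 0 in several IP libraries. Of the 5 with the smallest p, hspa13, dnajb11, dnajc10 and hspb8 had 0 counts in all 8 IP libraries, and dnajc12 had 81 in PC control batch b and 0 in the other 7. With fish as a replicate block 0 chaperone genes were called and 181 loci in all. The headers of the authors' deposited tables do not state the direction of a fold change, and an adjusted p listed as 100 was read as missing (3, 11 and 12 of the 67 genes in the 3 tables). The authors' deposited table for IP against input lists 30 of the 67 genes at an adjusted p under 0.05, all with a negative log2 fold change, and hsp90ab1 at -0.87 with an adjusted p of 0.0947. In the authors' deposited table for the mirror by IP term 4 genes are listed under 0.05, all negative, among them hspb1 at -6.78 (adjusted p = 0.0442). In the authors' deposited table for the term with species, 6 are listed, 4 positive and 2 negative, among them hspb11 at 11.24 (adjusted p = 0.0440). In the IP, hspb1 had a count in 1 of 8 libraries and hspb11 in 4 of 8, so both values rest in part on counts of 0. The share of all loci listed under 0.05 in the authors' 3 tables was not counted. The 30, 4 and 6 genes are therefore not a result about chaperone genes as a set.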

How the data were processed

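The authors deposited raw counts per assembled locus for 16 libraries, and 3 result tables with a log2 fold change, a p-value and an adjusted p per locus. The tools named by the submitters' processing notes are DESeq2, StringTie, HISAT2 and cutadapt. Versions, genome build, strand handling and treatment of multi-mapping reads were not given in the sources used here, so no coordinates are printed and paralogs may share reads.

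From the counts, edgeR 4.0.16 (R 4.3.3) was run with TMM, filterByExpr and the quasi-likelihood test, with 4 groups plus batch for the 8 inputs and 8 groups plus batch for all 16 libraries, at an adjusted p under 0.05. Alternatives used DESeq2 1.42.0, limma 3.58.1, other scaling and filters, single batches, and each fish left out. The fits were tested on simulated data, where the all-loci IP fit gave mostly false calls. Named were genes that passed, the 5 smallest p per comparison and the 3 highest levels per group. The other cct genes, dnajb1, dnajc7, dnajc13, dnajc16, dnajc27, actn3 and myl1 were chosen after their values were seen. Gene lists, the abundant loci and the members were chosen with earlier results of these data known. Input and IP pair by animal, and the deviations of paired libraries correlated at 0.05 to 0.51 over 856 loci. With 2 fish per group, p-values of the input fits measure the spread between fish. The main IP fits held no fish term and treated the 2 libraries of a fish as independent, unlike the fit with fish as a replicate block. 1 gene of the folding list that passed is not reported here.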

Additional observations from a re-analysis of the deposited data

Results flagged for a closer look

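Loci that carry chaperone names but are not full matches of the annotated gene were left out by the rule, and 6 of them had input counts above the limit that a count of 0 allows (3 counts) in all 8 fish. The values are median CPM over the 8 inputs. The st13 locus, a match with other splice junctions for the HSP70 and HSP90 co-chaperone HIP, was at 127. Loci of the same kind were at 17.8 for dnajc17, 18.4 for dnajc21 and 7.85 for dnajc4. Fragments beside an annotated gene were at 3.26 for dnajc3 and 4.08 for dnajc30, while the dnajc30 gene itself had counts in 1 input, at 0.21 CPM.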

How the results depend on the processing

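Groups of 2 fish and IP libraries with most loci at 0 limit these results. The shares of all loci called under the alternative settings below are not given in this section. For PC against MC in input, 14 calls became 0 with all 16 libraries in 1 fit, 3 in batch a alone, 0 in batch b alone and 4 in control fish alone, and 4 to 16 with 1 fish left out. With size factors from well-measured loci 12 were called, 7 higher and 5 lower. hspb1 reversed to -0.14 in mirror fish alone. For the mirror effect, 0 calls became 2 with DESeq2 and 3 without a low-count filter (0 to 2 with 1 fish left out, the 2 being ptges3 and dnajb5 without MC mirror batch a). For its species difference they became 1 and 2 (0 to 2 with 1 fish left out). Among abundant loci, IP against input gave 2 calls at an average above 6 log2 CPM, 0 in batch a alone, 0 in MC fish alone, and 0 to 2 with 1 fish left out. The species difference and the mirror effect there gave 0 to 1. With fish as a replicate block hsp90ab1 was -1.28, ptges3 turned to 0.05, and over all loci 36 calls became 0, against 26 to 33 with 1 fish left out. The block changed no other call of a chaperone gene. ptges3 also turned to 0.16 with loci abundant in the inputs, 0.50 without both MC fish of batch a and 0.31 in MC fish alone (-0.36 to 0.50 with 1 fish left out). dnajc8 turned to 0.02 with RLE size factors, 0.02 with DESeq2, 0.37 with loci abundant in the inputs, 0.17 above 6 log2 CPM, 0.16 without both MC fish of batch a, 0.15 in batch a, 0.09 in batch b and 0.31 in MC fish alone (-3.37 to 0.23 with 1 fish left out). The cause was not tested. Size factors from well-measured loci and a mean over libraries as the measure of abundance were chosen after seeing the data. The detection of 52 genes in an IP library did not change with a minimum of 10 counts.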
